A study of Mus musculus with 8 samples.

Results

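Collagens are the proteins of the extracellular matrix whose chains wind into triple helices, and 44 genes for such chains were measured among 19938 genes in mouse liver. The chains were found by symbol, as every gene whose name reads Col, a number, a and a number, on a probe set annotated to that symbol alone. Such probe sets numbered 46, because Col6a5 and Col6a6 had 2 each, and the one with the highest mean over all arrays stood for its gene. By the kind of structure they build, 11 were fibrillar chains, 6 basement membrane chains of type IV, 6 beaded-filament chains of type VI, 9 fibril-associated (FACIT) chains and 12 chains of other types.

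The study compared 4 transgenic livers, whose mice carry a constitutively active IKK2 placed behind the LAP promoter, with 4 livers of wild type control mice. All mice were 4 weeks old, of a mixed C57BL/6 and NMRI stock crossed back to C57BL/6 at least 4 times, and each liver had its own Affymetrix array. The labels call the livers of a group biological replicates and do not give the animals' sex. LAP is a promoter of hepatocytes, so the kinase is driven in the parenchymal cells, whereas most collagen of the liver is made by other cells. As a check of the labels, Ikbkb, the gene of IKK2, was higher in every transgenic liver than in any control and averaged 8.71 ± 0.39 log2 units in transgenic livers and 7.71 ± 0.19 in control livers (SD, n = 4 each; adjusted p = 0.0185 by limma); whether its probe set reads the transgene is not known here. Albumin (Alb), a marker of hepatocytes, read 13.6 in each group. Transgenic liver 2 stood somewhat apart, with a mean correlation over probe sets of 0.982 with the other transgenic livers, against 0.987 to 0.989 for each of those. Transgenic liver 4 correlated as closely with the control livers (0.987) as with its own group (0.987), and transgenic liver 3 nearly so (0.985, against 0.987).

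A collagen molecule is assembled in the endoplasmic reticulum from chains with a repeated glycine motif, after enzymes have hydroxylated their prolines and lysines. It is then exported, trimmed at its ends and cross-linked outside the cell. Type I and type III collagens form the fibrils of scar and of portal tracts, type IV forms the sheet-like network of basement membranes, and type VI forms beaded microfibrils around cells. In the liver, stellate cells and portal fibroblasts are the main source of fibrillar chains, and endothelial cells add type IV chains. FACIT collagens lie on the surface of fibrils, and many of the remaining chains belong to cartilage, skin, cornea or nerve.

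Promoter sequence is given for chains that moved together. RefSeq (GRCm38.p6) windows, which run from 250 bases before to 50 bases after a gene's start, were at hand for 35 of the 44 chains, Col1a1 not among them. The bases before the start of Col1a2, a chain of type I collagen, are shown because that chain rose. The second line gives the short stretch from the annotated start of Col4a2 to that of Col4a1, genes that are read in opposite directions and both rose. Capitals mark CCAAT and GGGCGG, searched on both strands.
Col1a2, chr6:4505368-4505617, plus strand: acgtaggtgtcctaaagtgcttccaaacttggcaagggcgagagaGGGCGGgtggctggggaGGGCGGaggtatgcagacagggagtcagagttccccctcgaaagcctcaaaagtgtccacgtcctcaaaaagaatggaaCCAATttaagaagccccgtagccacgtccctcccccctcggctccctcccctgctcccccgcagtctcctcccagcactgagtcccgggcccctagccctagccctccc
Col4a2 and Col4a1, chr8:11312805-11312826, plus strand: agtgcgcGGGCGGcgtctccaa
The 22 bases between the type IV starts hold a GGGCGG and belong to both annotated transcripts, on opposite strands. GGGCGG stood in the windows of 22 of the 35 chains (62.9%), against 38.2% of 27025 genes with a window. CCAAT stood in 13 chain windows (37.1%, against 41.1% of genes), and TATAAA in 5 (14.3%, against 15.7%). The NF-kB consensus of 10 letters matched the windows of 6 chains (17.1%, against 9.55%). These were Col4a2, Col6a2, Col6a4, Col9a1, Col9a2 and Col27a1. These matches describe letters in the windows and say nothing of binding.

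A minority of collagen chains passed as higher in transgenic livers, and these belonged to type I and type IV collagen. Col1a1 and Col1a2 (type I) and Col4a1 and Col4a2 (type IV) rose by 1.42-fold to 1.63-fold, and Col4a6, a type IV chain of restricted tissues, fell by 0.50 on the log2 scale. The other 39 chains did not pass the test, a two-sided limma fit over all probe sets with 1 symbol and Benjamini-Hochberg adjustment at a threshold of 0.05. The 5 chains that passed stand against 6.34% of all genes tested; the 4 higher chains are 9.09% of the 44, against 4.67% of genes, and the 1 lower chain is 2.27%, against 1.67%. At an unadjusted p under 0.05 by limma there were 23 of the 44 chains, and 6701 of all 19938 genes. No chain reached 2-fold in either direction, while 485 genes rose and 34 fell by that much. Of the 932 genes that rose, 694 had a larger log2 fold change than Col1a1, the collagen chain with the largest. After quantile normalization 4 chains were higher and 3 lower, and with every array shifted to a common median 4 were higher and 0 lower.

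**Figure D1:**
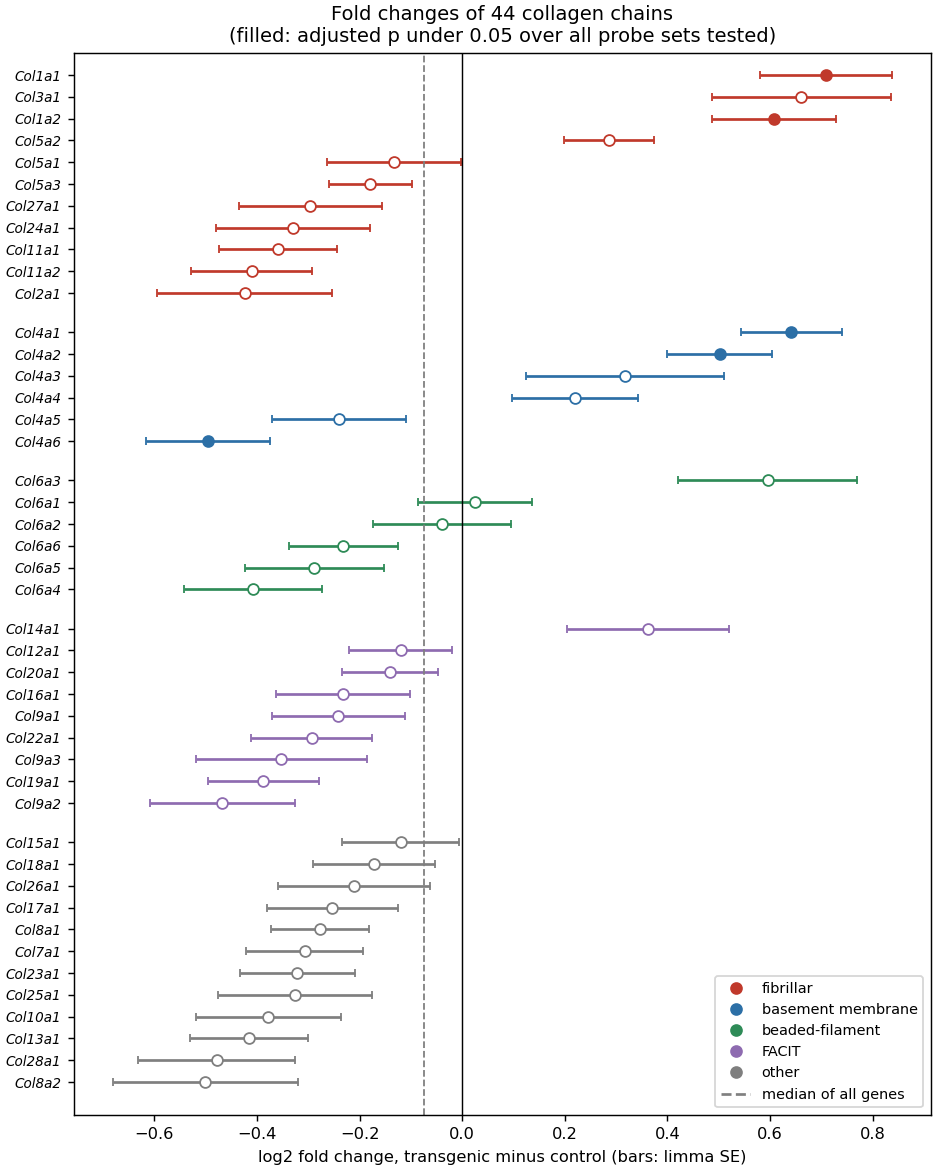
Log2 fold change (transgenic minus control, x axis) of the 44 chains by class, with limma standard errors as bars. Filled points passed at an adjusted p under 0.05; these are Col1a1, Col1a2, Col4a1 and Col4a2 on the right and Col4a6 on the left, and the dashed line at -0.07 is the median of all genes.

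Type I collagen is the chief fibril former of scar tissue, built from the products of Col1a1 and Col1a2. Col1a1 (probe set 10380419) read 8.99, 8.66, 8.62 and 9.06 log2 units in transgenic livers 1 to 4, against 8.25, 7.93, 8.05 and 8.26 in control livers 1 to 4. Col1a2 (probe set 10536220) read 9.04, 8.79, 8.77 and 9.09 in transgenic livers, against 8.43, 8.09, 8.22 and 8.51 in control livers. For both genes every transgenic liver lay above every control liver, and transgenic livers 1 and 4 were the highest. The log2 fold change was 0.71 for Col1a1 (SE 0.13, adjusted p = 0.0185 by limma) and 0.61 for Col1a2 (SE 0.12, adjusted p = 0.0257). Since the deposited values are of whole liver, more cells of a type and more RNA per cell cannot be told apart. Both calls were lost without transgenic replicate 1 (adjusted p = 0.0710 and 0.0921 by limma), control replicate 2 (0.0674 and 0.0761) or control replicate 3 (0.0643 and 0.0803), and that of Col1a2 also without control replicate 1 (0.0602). The log2 fold changes stayed between 0.58 and 0.79 for Col1a1, and between 0.50 and 0.69 for Col1a2, over the 16 alternatives.

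Type III and type V chains are built into the same fibrils, type III in the reticulin fibres of the liver lobule and type V in the core that sets fibril width. Col3a1 read 9.45, 8.82, 9.17 and 9.49 in transgenic livers, against 8.62, 8.25, 8.52 and 8.90 in control livers. Transgenic liver 2 lay below control liver 4, so the groups overlapped. Its log2 fold change of 0.66 (SE 0.18) was of the size of those of the type I chains but did not pass (adjusted p = 0.0540 by limma). Without transgenic replicate 2 it was 0.80 and passed (adjusted p = 0.0132 by limma). Col5a2 read 6.39, 6.19, 6.36 and 6.33 in transgenic livers, against 6.04, 5.87, 6.09 and 6.12 in control livers, without overlap. Its difference was small, at 0.29 (SE 0.09, adjusted p = 0.0709 by limma). For Col5a1, whose product pairs with that of Col5a2, the log2 fold change was -0.13, with an adjusted p of 0.474, and for Col5a3 it was -0.18, with 0.157.

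The remaining fibrillar chains are those of cartilage (Col2a1, Col11a1, Col11a2) and of developing bone and cartilage (Col24a1, Col27a1). All 5 had negative log2 fold changes, of -0.30 to -0.42, with adjusted p from 0.0633 to 0.167 by limma. For Col11a2 the groups did not overlap, as for Col5a3, and the 3 fibrillar chains with every transgenic liver above the controls were Col1a1, Col1a2 and Col5a2. Over the 44 chains such a separation was seen upward for 6 (13.6%) and downward for 7 (15.9%), against 11.2% of all genes in each direction.

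**Figure D2:**
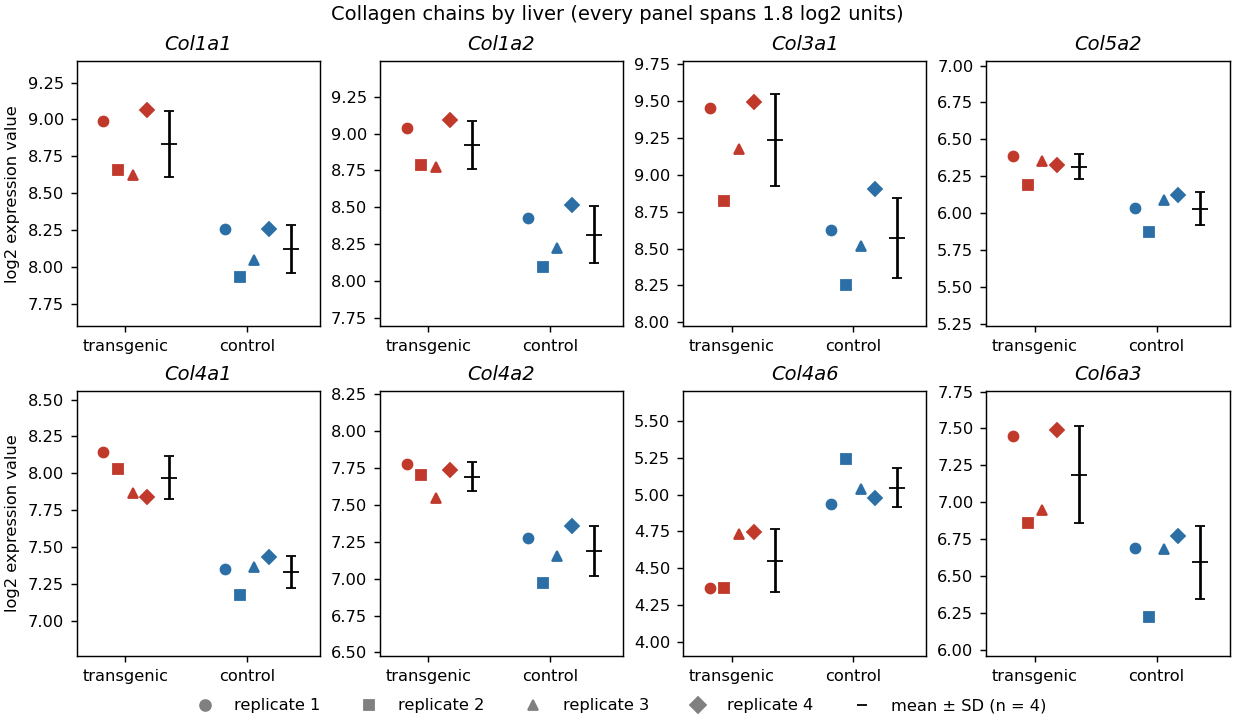
Log2 expression value (y axis) of 8 chains in each of 4 transgenic (red) and 4 control (blue) livers, with symbols for the replicate and mean ± SD beside them. Each panel spans the same number of log2 units; the groups do not overlap for any of these chains except Col3a1, and Col4a6 alone is lower in transgenic livers.

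Type IV collagen has 6 chains. The products of Col4a1 and Col4a2 make up the network of nearly all basement membranes, and those of the other genes replace it in places such as the kidney glomerulus. Col4a1 (probe set 10576973) read 8.15, 8.03, 7.87 and 7.84 in transgenic livers, against 7.35, 7.17, 7.36 and 7.43 in control livers. Col4a2 (probe set 10570068) read 7.78, 7.70, 7.55 and 7.73 in transgenic livers, against 7.28, 6.97, 7.15 and 7.36 in control livers. Both genes were thus higher in all 4 transgenic livers than in any control, and transgenic liver 1 was the highest for each. Col4a1 rose by 0.64 (SE 0.10, adjusted p = 0.0105 by limma), the smallest adjusted p of the 44 chains, and Col4a2 rose by 0.50 (SE 0.10, adjusted p = 0.0288). Col4a1 was called in all 16 alternatives (adjusted p from 0.00470 to 0.0445 by limma), and no other chain was. The call of Col4a2 was lost without transgenic replicate 1 (adjusted p = 0.09999 by limma) and without control replicates 1, 2 or 3 (0.0676, 0.0737 and 0.0841), and with all deposited probe sets tested (0.0511), where 3 chains were higher.

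Col4a6 (probe set 10607012) differed from them in direction. It read 4.37, 4.37, 4.73 and 4.75 in transgenic livers, against 4.94, 5.24, 5.04 and 4.98 in control livers. Every transgenic liver was below every control, and the gene fell, with a log2 fold change of -0.50 (SE 0.12) and an adjusted p of 0.0441 by limma. This is a dim probe set, whose readings lay under the array's median on 7 of the 8 arrays. The call was lost without any one of transgenic replicates 1 and 2 (adjusted p = 0.128 and 0.0665 by limma) and of control replicates 1 to 4 (0.0874, 0.116, 0.108 and 0.0811), and after shifting every array to a common median (0.0520). Its neighbour on the X chromosome, Col4a5, stood at -0.24 (adjusted p = 0.214). Col4a3 and Col4a4, also neighbours, had values of 0.32 and 0.22 (adjusted p = 0.259 and 0.223), with Col4a3 at 6.66 in transgenic liver 1 and 5.64 to 6.05 in the other transgenic livers.

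Type VI collagen links cells to the interstitial matrix, and its basic molecule holds the products of Col6a1, Col6a2 and Col6a3. Col6a3 read 7.45, 6.86, 6.95 and 7.49 in transgenic livers, against 6.69, 6.22, 6.68 and 6.77 in control livers. Every transgenic liver was above every control, by 0.60 on average (SE 0.18), and the test did not pass (adjusted p = 0.0661 by limma). It passed without transgenic replicate 2, at 0.70 (adjusted p = 0.0365 by limma). Col6a1 read 6.92, 6.62, 6.98 and 7.15 in transgenic livers, against 6.88, 6.89, 6.91 and 6.90 in control livers. Its partner Col6a2 read 6.64, 6.23, 6.75 and 6.85 in transgenic livers, against 6.55, 6.59, 6.79 and 6.68 in control livers. In both genes transgenic liver 2 was the lowest and transgenic liver 4 the highest of all 8 livers. Their log2 fold changes were 0.03 and -0.04 (adjusted p = 0.880 and 0.845), and the sign turned in 2 and in 4 of the 16 alternatives. Col6a4, Col6a5 and Col6a6, later-described relatives that lie side by side on chromosome 9, had values of -0.41, -0.29 and -0.23 (adjusted p from 0.0832 to 0.165). The second probe set of Col6a5 pointed the other way, at 0.26 (adjusted p = 0.159), and that of Col6a6 gave -0.08.

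Among the FACIT chains, only Col14a1 had a positive log2 fold change. This chain coats fibrils in connective tissue and is a product of fibroblasts. Col14a1 read 9.71, 9.37, 9.90 and 9.83 in transgenic livers, against 9.39, 8.97, 9.36 and 9.63 in control livers. The groups overlapped, and the log2 fold change was 0.36 (SE 0.16, adjusted p = 0.143 by limma). The other 8, namely Col9a1, Col9a2 and Col9a3 of cartilage, Col12a1, Col16a1, Col19a1, Col20a1 and Col22a1, ranged from -0.12 to -0.47. Col9a2 had the lowest value (-0.47, SE 0.14, adjusted p = 0.0690 by limma) and was lower in every transgenic liver than in any control. None of these 8 passed by limma. An unadjusted p under 0.05 was seen for 4 of the 9 FACIT chains, against 6701 of all 19938 genes. Col19a1 had the smallest adjusted p of the class (0.0599). Downward separation of the groups was seen for 1 of the 9 (11.1%, against 11.2% of all genes).

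Of the 12 chains of other types, all had negative log2 fold changes, with a median of -0.31, where 38.4% of all genes were positive. None passed (adjusted p from 0.0597 to 0.457 by limma). An unadjusted p under 0.05 was seen for 7 of these 12, against 6701 of all 19938 genes. Col18a1, whose C-terminal fragment is endostatin and which hepatocytes also make, read 8.97, 8.67, 8.98 and 8.99 in transgenic livers, against 9.19, 8.79, 9.11 and 9.22 in control livers. Its log2 fold change was -0.17 (SE 0.12, adjusted p = 0.313). Col15a1, the related chain of vascular basement membrane zones, read 6.33, 6.08, 6.28 and 6.42 in transgenic livers, against 6.23, 6.45, 6.64 and 6.27 in control livers. The difference was -0.12 on the log2 scale (SE 0.11, adjusted p = 0.457). For both genes the groups overlapped, and the sign for Col15a1 turned in 1 of the 16 alternatives. Among the remaining 10 the largest difference was that of Col8a2, a chain of the corneal and vascular network collagen, at -0.50 (SE 0.18, adjusted p = 0.0984). Its partner Col8a1 and the transmembrane collagens Col13a1 and Col23a1 were lower in every transgenic liver than in any control, with log2 fold changes of -0.28, -0.42 and -0.32 that did not pass. The others were Col7a1 of the anchoring fibrils of skin, Col10a1 of growth cartilage, the transmembrane collagens Col17a1 and Col25a1, and Col26a1 and Col28a1. Col28a1 had the largest difference of these, at -0.48 (SE 0.15, adjusted p = 0.0774 by limma). Downward separation of the groups was seen for 3 of the 12 chains (25.0%, against 11.2% of all genes).

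Log2 fold changes of the chains were mostly positive among the brightest probe sets and mostly negative among dimmer ones. The exceptions were Col18a1, bright and negative, and Col4a3, Col4a4, Col5a2, Col6a1 and Col6a3, dimmer and positive. With all genes put into 4 equal groups by mean reading, the brightest group held 7 chains, with a median log2 fold change of 0.61, against 0.06 for all genes there. The next held 21 chains, with a median of -0.23, against 0.04. The one below held 16 chains, with a median of -0.33, against -0.17, and the dimmest held none. Over all 44 chains the median was -0.24, against -0.07 for all genes, with 11 positive (25.0%, against 38.4% of all genes) and 33 negative values. Readings of different probe sets are not levels that can be compared between genes, and no background reading was used here. Readings lay above the array's median on all 8 arrays for 34 chains, on some arrays for 9 and on none for Col12a1. The part that dim signal has in the negative values was not tested.

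**Figure D3:**
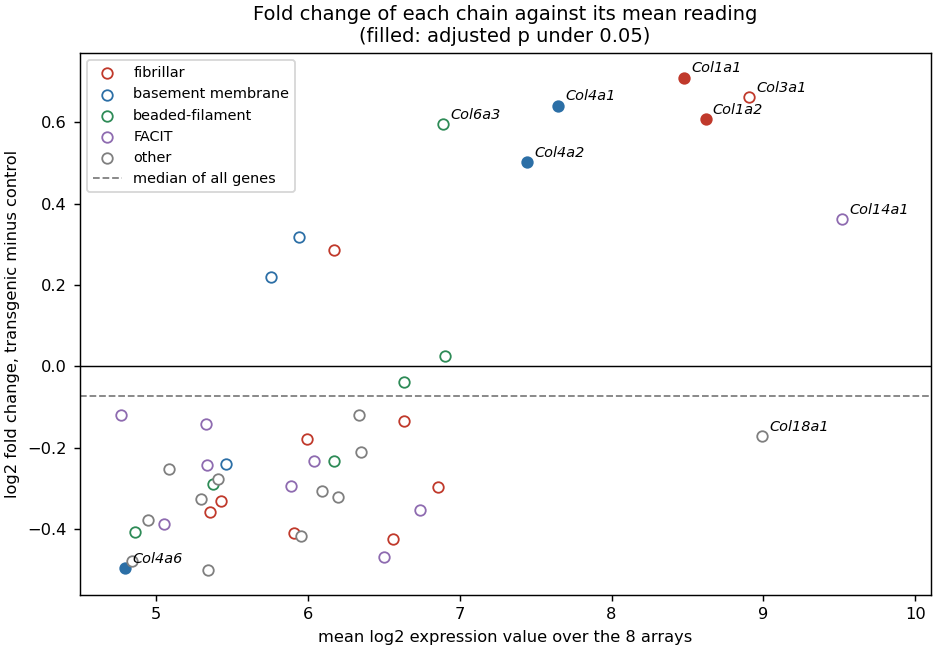
Log2 fold change (transgenic minus control, y axis) of each chain against its mean log2 reading over the 8 arrays (x axis), coloured by class and filled where the test passed. Of the 7 chains in the brightest group only Col18a1 is below 0, while Col4a6, which fell, is among the dimmest chains.

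The livers of a group did not agree equally well. Transgenic liver 2 was the lowest of the transgenic livers for 38 of the 44 chains, including all 12 of other types and all 6 beaded-filament chains. Its median difference from the control mean was -0.51 over the 44 chains, whereas transgenic livers 1, 3 and 4 had -0.32, -0.06 and -0.10. For the 11 chains with a positive log2 fold change the corresponding medians were 0.25 in transgenic liver 2, and 0.72, 0.36 and 0.51 in transgenic livers 1, 3 and 4. Control liver 2 was the lowest control for 8 of those 11 chains. Array medians were 4.88 to 5.01 in transgenic livers, lowest in transgenic liver 2, and 4.99 to 5.08 in control livers. Without transgenic replicate 2, 6 chains were higher (Col1a1, Col1a2, Col3a1, Col4a1, Col4a2 and Col6a3) and 0 lower by limma. Without transgenic replicate 1 only Col4a1 was higher, whereas without transgenic replicates 3 or 4 there were 4 higher and 5 lower in each case. Calls over all genes moved with the same omissions: 199 were higher and 3 lower without transgenic replicate 1, 976 and 260 without transgenic replicate 2, 1359 and 674 without transgenic replicate 3, and 1636 and 944 without transgenic replicate 4. Without control replicates 1, 2, 3 or 4 the higher chains numbered 2, 1, 1 and 4, with 0 lower, while 256, 192, 203 and 268 genes were higher and 13, 10, 35 and 32 lower. Standard deviations of the chains had a median of 0.22 in transgenic livers and 0.15 in control livers, and 33 of 44 were larger in transgenic livers. The corresponding shares over all genes, for this count and for how often transgenic liver 2 was lowest, are not given here.

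**Figure D4:**
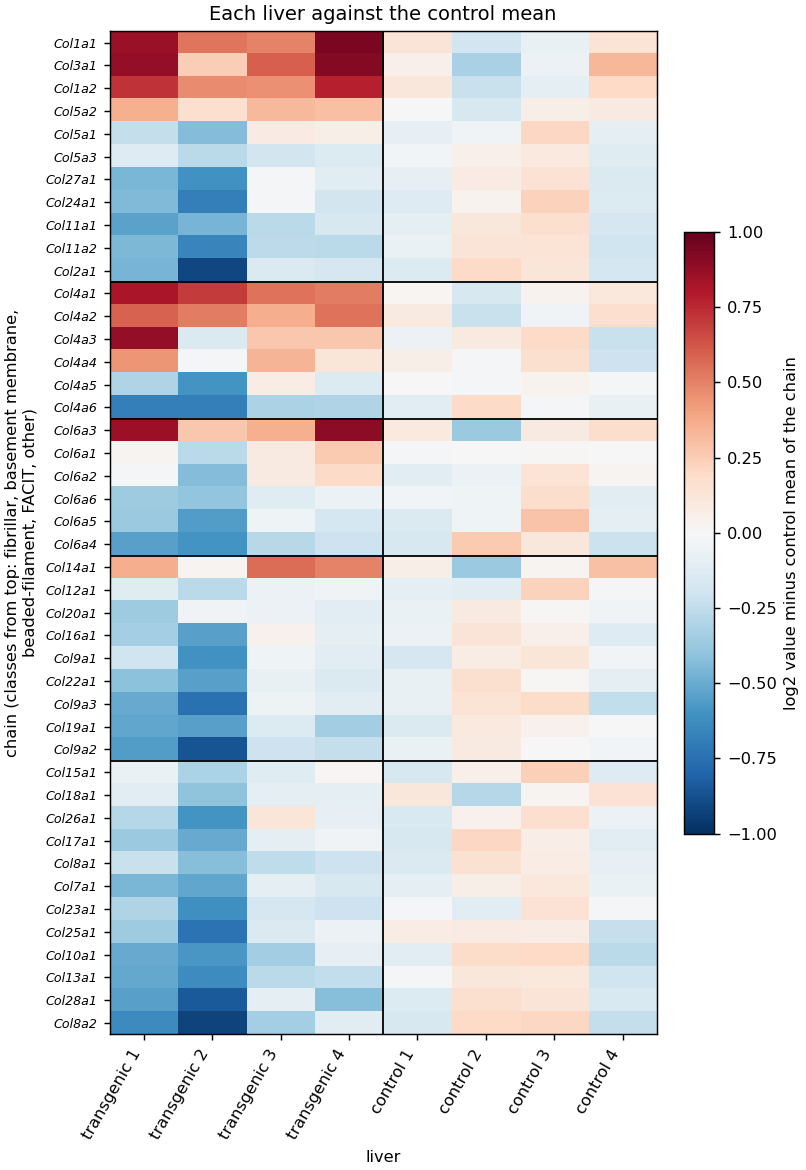
Log2 value of each chain minus its control mean (colour) in 4 transgenic and 4 control livers (columns), with chains in rows by class. Rows red in all 4 transgenic columns are Col1a1, Col1a2, Col3a1, Col5a2, Col4a1, Col4a2, Col6a3 and, faintly in transgenic 2, Col14a1; the transgenic 2 column holds the lowest transgenic reading for 38 of 44 chains.

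Chains that join in 1 molecule were compared with each other, as 9 pairs, by exact two-sided permutation tests over the 8 livers. The smallest p this design allows is 0.0286, and 0 of the 9 pairs passed after Benjamini-Hochberg adjustment, which a pair could do only if most of the 9 reached that smallest p. The log2 fold change of Col1a1 minus that of Col1a2 was 0.10 (exact permutation p = 0.0286, adjusted p = 0.0857), and that of Col5a1 minus that of Col5a2 was -0.42, with the same p values. Col9a1 minus Col9a2 gave 0.23, again with these p values. For Col4a5 minus Col4a6 the difference was 0.25 (exact permutation p = 0.0571, adjusted p = 0.129). For Col4a1 minus Col4a2 it was 0.14 (exact permutation p = 0.0857, adjusted p = 0.154), and for Col6a1 minus Col6a2 it was 0.06 (p = 0.371, adjusted p = 0.478). Genes next to each other on a chromosome formed 8 pairs among the chains. In 7 of them both neighbours had the same sign, Col6a1 and Col6a2 being the exception, and only the pair of Col4a1 and Col4a2 had both members past the test. With 33 of the 44 chains negative, a shared sign is common among pairs of chains wherever they lie. The share among chains that are not neighbours was not computed.

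Genes that fold, modify, export, trim, cross-link and bind collagen were read from lists of 46 genes, of which 42 were measured. Of these 3 rose (7.14%, against 4.67% of all genes) and 0 fell by limma. An unadjusted p under 0.05, in either direction, was seen for 16 of 42, against 6701 of all 19938 genes. In the list of modification and folding 2 of 17 rose (11.8%, against 4.67% of all genes). Colgalt1, which attaches galactose to hydroxylysine, read 9.71, 9.90, 8.95 and 9.01 in transgenic livers, against 8.40, 8.28, 8.39 and 8.20 in control livers. P4ha1, a catalytic subunit of the prolyl hydroxylase that stabilises the triple helix, read 7.53, 8.24, 7.43 and 7.18 in transgenic livers, against 6.79, 6.84, 6.72 and 6.86 in control livers. Neither gene's groups overlapped, and in both transgenic liver 2, low for most chains, was the highest. Colgalt1 rose by 1.08 (SE 0.20, adjusted p = 0.0216 by limma) and P4ha1 by 0.79 (SE 0.19, adjusted p = 0.0437). Serpinh1, a collagen-specific chaperone, stood at 0.18 on the same scale (adjusted p = 0.175), and the lysyl hydroxylases Plod1, Plod2 and Plod3 had 0.28, 0.36 and 0.20 (adjusted p from 0.134 to 0.235). Without transgenic replicate 2 both still passed, Colgalt1 at 0.91 (adjusted p = 0.0129 by limma) and P4ha1 at 0.58 (adjusted p = 0.00924). All 3 calls of these lists were lost without transgenic replicate 1 and without any one control replicate.

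None of the 12 genes of export and processing passed, and 3 had an unadjusted p under 0.05 by limma, against 6701 of all 19938 genes. Pcolce, which enhances removal of the C-propeptide of fibrillar procollagens, came closest at 0.38 (SE 0.11, adjusted p = 0.0614 by limma), and Bmp1, the protease that removes it, had -0.42 (SE 0.17, adjusted p = 0.127). Of the 4 cross-linking oxidases measured none passed either; Lox, which starts the cross-links, had the smallest adjusted p (0.0910), at 0.45 (SE 0.16). Among 9 collagen receptors 1 rose (11.1%, against 4.67% of all genes). Lair1, an inhibitory receptor of leukocytes that binds collagen, read 6.85, 7.58, 6.08 and 6.22 in transgenic livers, against 5.42, 5.16, 4.98 and 5.23 in control livers. It rose by 1.49 (SE 0.29, adjusted p = 0.0228 by limma), without overlap, and by 1.19 (adjusted p = 0.00407) without transgenic replicate 2, the liver with its highest reading. The integrin chains Itga1 and Itga2 of the collagen-binding heterodimers had 0.45 and 0.85 (adjusted p = 0.125 and 0.0652), and the receptor kinases Ddr1 and Ddr2 had 0.01 and 0.29 (adjusted p = 0.907 and 0.0735).

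**Figure D5:**
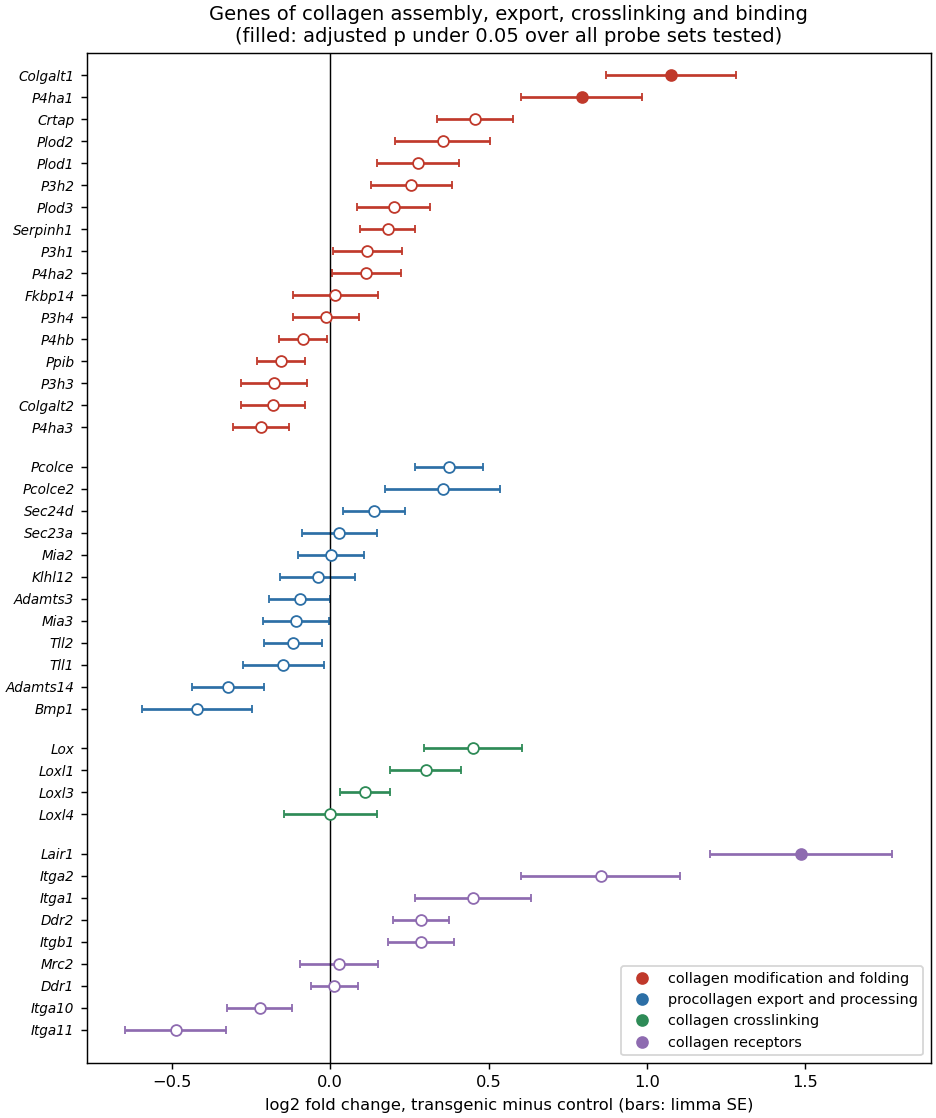
Log2 fold change (transgenic minus control, x axis) with limma standard errors for 42 genes of collagen modification, export, cross-linking and reception, by list. Filled points passed at an adjusted p under 0.05; they are Colgalt1, P4ha1 and Lair1, all to the right of 0.

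Markers of the cells that could carry these transcripts moved unequally. Of 18 stellate cell and fibroblast markers 4 rose (22.2%, against 4.67% of all genes) and 0 fell (against 1.67%), with a median of 0.20, against -0.07 for all genes. They were the proteoglycans Lum at 1.36 and Dcn at 0.55, the growth factor Hgf at 0.74 and the receptor Pdgfra at 0.64 (adjusted p from 0.00286 to 0.0360 by limma). Without transgenic replicate 2 again 4 of this list rose, and without transgenic replicate 1 or control replicates 2 or 3 there were 2. Acta2, the actin of activated stellate cells, had 0.14 (adjusted p = 0.519 by limma), and Des and Lrat, markers of stellate cells, had -0.03 and 0.10 (adjusted p = 0.872 and 0.632). The mean of this list ran from 7.02 to 7.22 in transgenic livers, against 6.82 to 7.01 in control livers. Of 13 endothelial markers 2 rose (15.4%, against 4.67% of all genes), namely Stab1 at 0.80 and Cd34 at 0.61, and 0 fell (against 1.67%). In log2 fold change 9 were positive and 4 negative, with a median of 0.13. Flt1 and Lyve1 were the lowest, at -0.17 and -0.15 (adjusted p = 0.337 and 0.475 by limma), and Kdr had 0.03 (0.910). List means were 7.89 to 8.02 in transgenic livers, against 7.54 to 7.86 in control livers. Without transgenic replicate 2 again 2 endothelial markers rose, and without transgenic replicate 1 or control replicates 2, 3 or 4 there was 1.

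Macrophage and monocyte markers had the largest median of these lists, 1.72, with 10 of 12 higher (83.3%, against 4.67% of all genes), led by Ccr2, Lyz2, Cx3cr1 and Itgam at 3.72, 2.84, 2.32 and 2.30. Their list mean was 8.40 to 9.69 in transgenic livers, highest in transgenic liver 2, against 6.80 to 7.04 in control livers. Without transgenic replicate 2 all 12 were higher and the median was 1.46. Without transgenic replicate 1 or control replicates 1, 2 or 3 there were 7 higher, and without control replicate 4 there were 8. None of 6 bile duct markers passed (Krt19 had the smallest adjusted p, 0.0885 by limma, at -0.25), with list means of 5.01 to 5.14 in transgenic livers and 5.03 to 5.18 in control livers. None of 5 mesothelial markers passed (Upk1b at -0.42, adjusted p = 0.0540, which passed without transgenic replicate 2 at -0.48, adjusted p = 0.0311), with list means of 4.99 to 5.27 in transgenic livers and 5.36 to 5.48 in control livers. Nor did any of 9 hepatocyte markers (Asgr1 at -0.31, adjusted p = 0.113 by limma). An unadjusted p under 0.05 was seen for 1 of 6 bile duct, 2 of 5 mesothelial and 2 of 9 hepatocyte markers. Over all genes it was seen for 6701 of 19938. Hepatocyte list means were 12.1 to 12.4 in transgenic livers, against 12.3 to 12.4 in control livers. The part of each cell type in the collagen values was not tested.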

How the data were processed

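Liver RNA was measured on 8 Affymetrix arrays. The deposited values are on a log2 scale, as read from their range. The submitters' processing notes name Affymetrix Expression Console; the normalization run in it, and its version, are not given in the sources consulted. Of 35556 probe sets, 21789 have 1 symbol in the platform annotation, 1621 several and 12146 none; 21698 matched RefSeq by Entrez identifier, with 0 symbols changed. Those with 1 symbol were fitted with limma 3.58.1 in R 4.3.3 (package data.table, version 1.17.8), with group as the only term and empirical Bayes moderation, and adjusted over all of them. Genes were then counted once, through the brightest probe set, 19938 in all. No further normalization was applied. The steps were tested on simulated data. Precision is limited by the number of arrays.

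Named were all chains past the threshold, 12 chains expected in liver, the 3 largest changes among the rest, and of each list up to 4 passing genes or that with the smallest p; Plod1 to Plod3, Serpinh1, Bmp1, the integrin and Ddr receptors, Acta2, Des and Lrat were added after values were seen. The chains, lists and tests were chosen with earlier results of these data known. Alternatives were other scalings, a filter on dim probe sets, all probe sets, probe set means, other moderation, array weights, a replicate block and leaving out each array; for the marker lists and single pathway genes, leaving out each array was added after values were seen.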

Additional observations from a re-analysis of the deposited data

Results flagged for a closer look

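Dixon's ratio was computed for each of the 44 chains in each group of 4 livers, 88 groups in all, and 3 readings stood far from the rest of their group; chance alone gives about 1 in 20. Col18a1 read 8.67 in transgenic liver 2, against 8.97 to 8.99 in the other transgenic livers. Col6a3 read 6.22 in control liver 2, against 6.68 to 6.77 in the other control livers. Col25a1, a transmembrane collagen of neurons, read 5.23 in control liver 4 and 5.54 in the other control livers.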

How the results depend on the processing

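The median log2 fold change of the 44 chains stayed negative throughout, between -0.26 (quantile normalization) and -0.13 (array weights), and between -0.31 and -0.17 when each liver was left out. With 4 chains higher and 1 lower as reported, quantile normalization gave 3 lower, array weights gave 7 higher and 0 lower, a replicate block gave 6 higher, all deposited probe sets gave 3 higher, and 0 were lower after shifting arrays to a common median, with all deposited probe sets and with a replicate block. Leaving out each liver gave 1 to 6 higher and 0 to 5 lower chains. Of the genes of collagen assembly and binding, 3 rose and 0 fell as reported; 5 rose with array weights and 2 after the shift to a common median, with all probe sets and with the replicate block, and 0 to 4 rose and 0 to 1 fell when a liver was left out. Over all genes 932 rose and 333 fell; 618 and 97 did after that shift, 1066 and 638 after quantile normalization, 512 and 86 with all probe sets; array weights gave 501 lower, and leaving out each liver 192 to 1636 higher and 3 to 944 lower. Calls of Col3a1 were gained on leaving out the dimmest 30% of probe sets (adjusted p = 0.0451 by limma), with trend and robust moderation (0.0473) and with array weights (0.0179). The cause was not tested. The labels do not say whether replicate numbers pair the livers, and pairing was not tested. Deviations of same-numbered livers correlated at 0.24, -0.03, 0.26 and -0.13. The controls that matched transgenic livers 1 to 4 best were controls 1, 4, 3 and 3. With the replicate block 670 genes rose and 174 fell, Col3a1 and Col6a3 passed (adjusted p = 0.0195 and 0.0396 by limma) and Col4a6 did not (0.0746). Since no background reading was used, dim chains such as Col4a6 carry the least certain values.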
